A study of Rattus norvegicus with 6 samples.

Results

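The Mirg cluster of the Dlk1-Dio3 imprinted domain is a row of small hairpin genes that lie close together on rat chromosome 6, nearly all of them read in the same direction. The miRNAs described here were chosen by name, with earlier results of these data known. They are every listed arm of 33 named precursors between miR-379 and miR-410, which gave 63 of the 753 mature miRNAs in the count table. Small RNA had been sequenced on day 14 from the lumbar spinal cord of 3 rats with bone cancer pain (BCP) and 3 that were sham-operated, with 1 library per rat. Living Walker 256 mammary carcinoma cells had been placed in the marrow of the left tibia of the BCP rats, and the sham-operated rats had received heat-killed cells at the same site, so that both groups carried the surgery and the cell material. The tissue was the lumbar enlargement on the injected side without its meninges. The labels give the strain as Wistar, the study's methods give female Sprague Dawley rats, and neither names a genetic change. Each library is a mixture of every cell type of the cord, so fewer cells of a type and less RNA per cell cannot be told apart.

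The Dlk1-Dio3 domain is controlled by parental origin. Dlk1, Rtl1 and Dio3 are expressed from the paternal copy, whereas the non-coding transcripts Meg3, Rian and Mirg and the miRNAs within them are expressed from the maternal copy. Mirg is the host transcript of many miRNA hairpins. Drosha cuts each hairpin from the transcript, Dicer cuts away its loop, and either strand of the remaining duplex, the 5p arm or the 3p arm, can be loaded into an Argonaute protein. The loaded strand finds its targets mainly through its seed, bases 2 to 8. The cluster is known for its expression in the nervous system, where the transcription factor MEF2 drives it in active neurons and miR-134-5p limits the growth of dendritic spines by holding back the translation of Limk1.

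All 63 miRNAs were matched to mature sequences of RefSeq with the GRCr8 build, in which 31 of the 33 precursors lie on the plus strand of chromosome 6. The other 2, miR-299b and miR-409b, lie on the minus strand. The 5 miRNAs with the highest levels in the sham group are shown first, 5′ to 3′, with the seed in capitals.
miR-543-3p: aAACAUUCgcggugcacuucu
miR-379-5p: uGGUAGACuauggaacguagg
miR-323-3p: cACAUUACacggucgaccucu
miR-382-5p: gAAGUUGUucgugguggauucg
miR-495: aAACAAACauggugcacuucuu

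Their 5 seeds all differ. The seeds that were shared within the cluster belonged to 11 miRNAs in 5 groups, and none of the 625 miRNAs of the count table outside the cluster with a sequence carried any of these 5 seeds. They are shown because miRNAs with the same seed can share targets. The largest group held 3 of the 5p arms.
miR-410-5p: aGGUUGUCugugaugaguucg
miR-494-5p: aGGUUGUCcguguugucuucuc
miR-496-5p: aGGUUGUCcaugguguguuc

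The other 4 groups were pairs, formed by miR-381-3p with miR-539-3p, miR-376b-5p with miR-376c-5p, miR-299a-5p with miR-299b-5p and miR-299a-3p with miR-299b-3p. miR-300-3p is set beside the first pair because it shares a run of 14 bases with miR-381-3p but not the seed.
miR-381-3p: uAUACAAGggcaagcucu
miR-539-3p: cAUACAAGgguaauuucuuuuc
miR-300-3p: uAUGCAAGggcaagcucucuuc
miR-376b-5p: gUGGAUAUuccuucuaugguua
miR-376c-5p: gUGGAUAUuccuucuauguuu
miR-299a-5p: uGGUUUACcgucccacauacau
miR-299b-5p: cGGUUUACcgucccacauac
miR-299a-3p: uAUGUGGGacgguaaaccgcu
miR-299b-3p: uAUGUGGGacgguaaac

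Outside the seed, 5 of the 3p arms shared the letters GGUCCAC in their middle, and 2 of these precursors, miR-379 and miR-411, are neighbours. These 5 miRNAs are 7.94% of the cluster, whereas the same letters were in 0 of those 625 others. The letters were looked for on the miRNA strand after the sequences had been read, and the match is a description of related hairpins.
miR-379-3p: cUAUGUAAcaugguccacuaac
miR-411-3p: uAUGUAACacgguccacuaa
miR-380-3p: uAUGUAGUaugguccacaucu
miR-758-3p: uUUGUGACcugguccacuaacc
miR-412-3p: cUUCACCUgguccacuagccgu

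A second shared run, GGUUGACC, was in 4 miRNAs of the cluster (6.35%), miR-134-5p, miR-154-3p, miR-380-5p and miR-758-5p, and again in 0 of the 625 others. The shorter run CACGG was in 7 of the 63 (11.1%) and in 7 of the 625 others (1.12%). Base composition ran from 23.8% G and C in miR-369-3p to 72.7% in miR-323-5p among the miRNAs that were tested.
miR-369-3p: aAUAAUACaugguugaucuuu
miR-323-5p: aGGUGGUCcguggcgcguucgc

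The libraries held between 13464349 and 23770677 counts. The tissue label was checked on miRNAs known from the nervous system, in CPM, the count scaled to the size of the library by edgeR's TMM factors. Of 4 neuron miRNAs, miR-9-5p was not in the table under that name, and other names were not searched. The other neuron miRNAs, miR-124-3p, miR-128-3p and miR-138-5p, summed to 54200 to 63640 CPM in BCP rats and 57610 to 70510 CPM in sham-operated rats. The 3 oligodendrocyte miRNAs summed to 12900 to 15230 CPM against 14180 to 17270 CPM, nearly all from miR-219a-2-3p, with miR-219a-5p at 4.28 to 6.33 CPM and miR-338-3p at 19.2 to 29.2 CPM over the 6 libraries. Both miRNAs of the caudal neural tube, miR-10a-5p and miR-10b-5p, were present, at a sum of 20480 to 24040 CPM against 18960 to 21220 CPM. The 4 miRNAs of vessels and smooth muscle summed to 21300 to 30370 CPM against 21420 to 29010 CPM, and the 3 of skeletal muscle to 96.7 to 103.0 CPM against 82.7 to 106.5 CPM. Of 7 blood cell miRNAs, 5 were listed at 0 in every library, miR-451-5p among them. The summed level of the 7 was 975.1 to 1283 CPM in BCP rats and 1090 to 1379 CPM in sham-operated rats, nearly all from miR-150-5p (log2 fold change -0.13). miR-223-3p of this list was at 5.57 to 7.93 CPM in BCP rats and 0.658 to 2.31 CPM in sham-operated rats. Its log2 fold change was 2.13, with an adjusted p of 0.019 by edgeR's quasi-likelihood test. Both listed markers of microglia and inflammation, miR-155-5p and miR-146a-5p, were higher in every BCP rat than in any sham-operated rat, with a summed level of 4304 to 4879 CPM against 1107 to 1453 CPM. Their part in the values below was not tested.

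Mirg cluster miRNAs were found over a wide range of levels. In the sham group, 8 of the 63 were above 1000 CPM, 21 lay between 100 and 1000, 11 between 10 and 100, 11 between 1 and 10, and 12 were at or under 1 CPM. The highest stood at rank 34 among all 753 miRNAs, and 14 were among the first 100. A read counts 1 mature miRNA whole, so levels of different miRNAs are set side by side in CPM with no term for length. Counts were present in all 6 libraries for 59 miRNAs, and miR-409b was at 0 in every library, where the limit of 3 counts stands for 0.127 to 0.221 CPM. The low-count filter of edgeR (filterByExpr, minimum count 10) kept 55 of the 63 and 459 of the 753. The 8 that did not pass, which were miR-381-5p, miR-494-5p, miR-666-3p, miR-376c-5p, miR-758-5p, both arms of miR-299b and miR-409b, are described by their levels only.

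**Figure D1:**
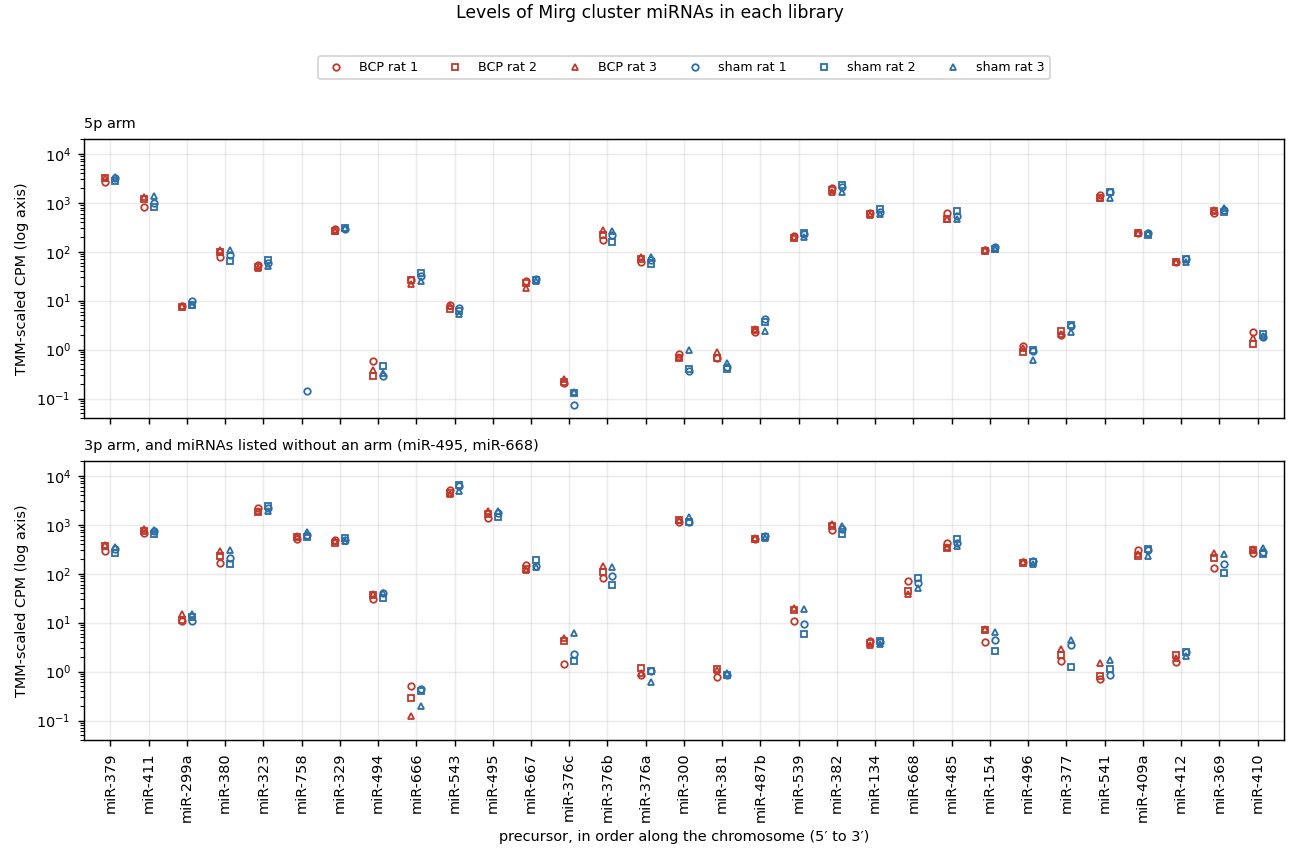
Level of each Mirg cluster miRNA in TMM-scaled CPM on a log axis, by precursor in chromosome order, with the 5p arms above and the 3p arms below; each symbol is 1 library, BCP in red and sham in blue, and libraries at 0 are not drawn. Levels differed between miRNAs by up to 9900-fold among those tested, whereas the 6 libraries of a miRNA mostly lie close together.

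miR-543-3p had the highest level in the cluster. It was at 5067, 4563 and 4301 CPM in BCP rats 1, 2 and 3 and at 6077, 6421 and 4903 CPM in sham-operated rats 1, 2 and 3. The sham-operated rats 1 and 2 were above every BCP rat, whereas sham-operated rat 3 was below BCP rat 1, so the groups overlapped. miR-379-5p, from the first hairpin of the row, followed with 2658, 3213 and 3278 CPM in BCP rats and 3274, 2839 and 3323 CPM in sham-operated rats. Its lowest values were those of BCP rat 1 and sham-operated rat 2. miR-323-3p was next, with 2172, 1851 and 1892 CPM in BCP rats and 2221, 2374 and 1893 CPM in sham-operated rats. miR-382-5p was at 2044, 1858 and 1648 CPM in BCP rats and 2138, 2293 and 1699 CPM in sham-operated rats. For these last 2 miRNAs it was sham-operated rat 2 that had the highest value. miR-495 was at 1384, 1630 and 1881 CPM in BCP rats against 1751, 1423 and 1873 CPM in sham-operated rats, again with BCP rat 1 and sham-operated rat 2 at the low end.

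The order of these levels was firm at the top and loose below. miR-543-3p (5800 ± 795.9 CPM in the sham group, SD, n = 3) was separated from miR-379-5p (3145 ± 266.6) in each library, and miR-379-5p from miR-323-3p (2163 ± 245.7). miR-323-3p and miR-382-5p (2043 ± 308.1) lay within each other's spread, as did miR-495 (1683 ± 232.8) and miR-541-5p (1548 ± 235.0). After these came miR-300-3p (1230 ± 174.6), miR-411-5p (1072 ± 293.8), miR-382-3p (798.5 ± 155.3) and miR-411-3p (724.3 ± 55.7), of which each differed from the next by less than the larger SD. The first 3 miRNAs made up 40.3% of the cluster's sum in the sham group, the first 5 made up 53.8% and the first 10 made up 73.3%. They came from both ends and the middle of the row, with miR-379 and miR-411 in places 1 and 2, miR-543 and miR-495 in places 10 and 11, and miR-541 in place 27 of 31.

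Neighbouring hairpins could differ widely. miR-376c-3p, in place 13, was at 1.44, 4.20 and 4.81 CPM in BCP rats and 2.31, 1.64 and 6.22 CPM in sham-operated rats, while miR-376b-5p, from the next hairpin, was at 172.2, 215.4 and 273.1 CPM and at 216.4, 157.2 and 261.3 CPM. The miR-376 hairpins are a family of related copies whose seeds are known targets of A-to-I editing in the brain. miR-300 and miR-381, in places 16 and 17, were further apart, at 15718 to 26571 counts for miR-300-3p and 12 to 18 counts for miR-381-3p. These near-identical miRNAs are uncertain. RefSeq gives miR-381-3p a sequence of 18 bases, of which 14 are shared with miR-300-3p, and how reads that match more than 1 miRNA were assigned is not given in the sources used here. The same holds for miR-376c-5p, which had 1 to 5 counts and shares 18 bases with miR-376b-5p at 2390 to 4318 counts, and for miR-299b-3p, all 17 bases of which lie within miR-299a-3p and which had 0 to 3 counts. The study's methods name a length of 21 to 22 bases for known miRNAs. In RefSeq, 44 of the 63 have that length and 19 do not, from 17 bases in miR-299b-3p to 25 bases in miR-541-5p, which still had 1251 to 1694 CPM.

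Both arms of 30 precursors were listed, and 26 of these had at least 100 counts over both arms in every library. The 5p arm held more than 50% of the counts in 13 and the 3p arm in the other 13. By the mean over the 6 libraries, the 5p arm had over 90% in 8 precursors and under 10% in 8, and in 10 neither arm reached 90%. The most one-sided toward 5p were miR-541 (mean over the 6 libraries 99.9% 5p) and miR-134 (99.4%), the precursor of the regulator of spine size. miR-666 (98.9%), miR-376a (98.6%) and miR-412 (96.8%) followed. At the other end, the 5p share was 0.00395% in miR-758, 0.0528% in miR-300, 0.136% in miR-543, 0.535% in miR-487b and 0.551% in miR-496. Behind the value for miR-758 were 7787 to 12041 counts per library, 0 to 2 of them on the 5p arm.

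Of these 26 precursors, the 5 with the most even use of both arms are given by library. miR-409a was nearest to even, with a 5p share of 44.1%, 51.1% and 48.7% in BCP rats and 44.5%, 40.7% and 50.5% in sham-operated rats, and it was the 1 of the 26 whose dominant arm changed between libraries. miR-485, whose 5p arm is known to act on the synaptic vesicle protein SV2A, was at 58.3%, 57.8% and 57.6% in BCP rats and 56.0%, 56.8% and 55.8% in sham-operated rats. Its 6 values stayed within a narrow band. miR-411 had 55.4%, 61.6% and 61.6% against 57.7%, 55.2% and 64.4%, miR-299a 41.6%, 39.5% and 33.8% against 47.9%, 38.9% and 35.9%, and miR-329 37.4%, 38.0% and 35.8% against 36.7%, 36.5% and 39.8%. In these the SD within each group was larger than the difference between the group means.

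**Figure D2:**
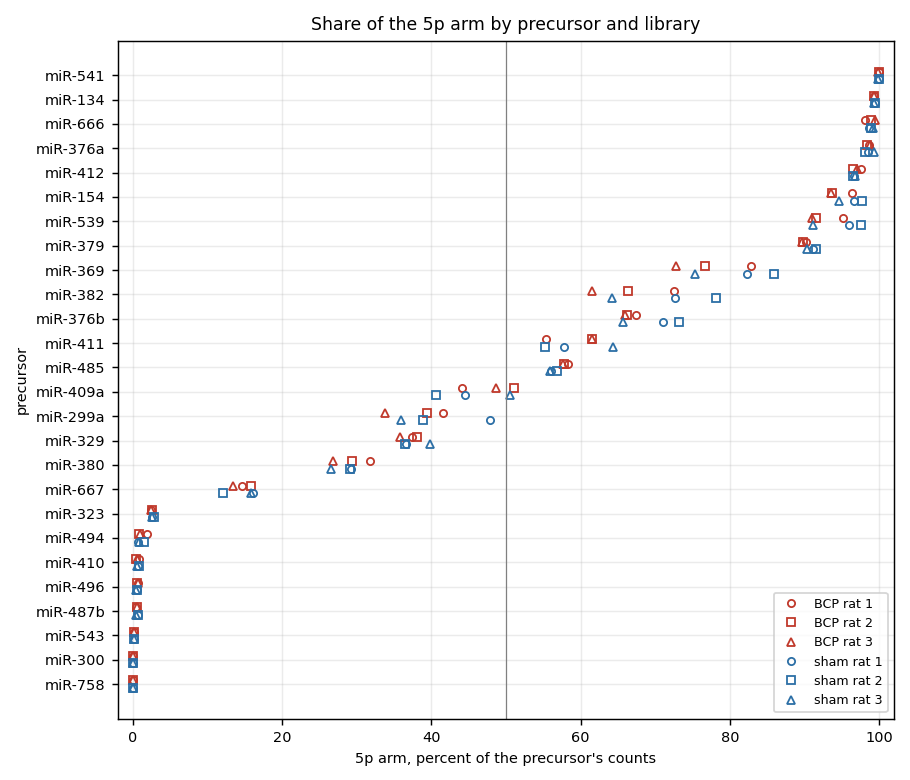
Share of the 5p arm in the counts of each of 26 precursors, in percent, by library (BCP in red, sham in blue); the vertical line marks 50%. By their mean share the precursors fall into 8 with over 90% 5p, 8 with under 10% and 10 between, and the libraries of both groups are mixed in nearly all of them.

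In percentage points, arm use differed little between the groups. The mean 5p share in BCP rats minus that in sham-operated rats was at most 4.83 percentage points in size, in miR-382, where the 5p share was 72.5%, 66.4% and 61.5% in BCP rats and 72.6%, 78.2% and 64.2% in sham-operated rats. This measure can hardly move in one-sided precursors. As log2(CPM + 1) of the 5p minus the 3p arm, BCP minus sham was -0.69 in miR-539, 0.57 in miR-543 and -0.56 in miR-154. It was -0.34 in miR-382. The groups overlapped in miR-539 and miR-154. In 4 of the 26 precursors (15.4%) the groups did not overlap, beside 23 of all 180 precursors of the table with as many counts (12.8%), so that the share in the cluster was near the background. The 5p share was higher in BCP rats in miR-543 (0.164% ± 0.0161 against 0.108% ± 0.0108, SD, n = 3 each) and miR-485 (57.9% ± 0.336 against 56.2% ± 0.535), and lower in miR-323 (2.46% ± 0.0889 against 2.69% ± 0.125) and miR-379 (89.9% ± 0.320 against 91.0% ± 0.628). Each of these 4 had p = 0.1 in a two-sided exact permutation test of the 5p share, the smallest value that 3 rats against 3 can give, so that none of the 26 tests could pass 0.05. No other precursor reached that value.

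The comparison of BCP with sham-operated rats asked whether the cluster changed with bone cancer pain. No miRNA of the cluster was called. By edgeR's quasi-likelihood test with Benjamini-Hochberg adjustment over the 459 tested miRNAs, 0 of the 55 had an adjusted p below 0.05 with an absolute log2 fold change above 0.8, beside 16 of all 459 (3.49%). The lowest adjusted p in the cluster was 0.286. At an unadjusted p below 0.05 there was 1 of 55, beside 60 of 459 (13.1%), and DESeq2 and limma-voom also called 0, with 1 miRNA at an unadjusted p below 0.05 each. The fitted log2 fold changes were small, with a median of -0.09 in the cluster and -0.0034 over all tested miRNAs. They ran from -0.49 to 0.48, 35 of 55 were under 0.2 in size, and 35 (63.6%) were below 0, beside 51.0% of all tested miRNAs.

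The precision behind these values was uneven. The 95% interval of the log2 fold change lay within 0.8 of zero for 41 of the 55 and within 0.5 for 22. For the remaining 14 the interval reached beyond 0.8, so a change as large as the threshold could not be told from none with 3 rats per group. Rats of a group varied by 16.9%, as edgeR's common biological coefficient of variation.

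**Figure D3:**
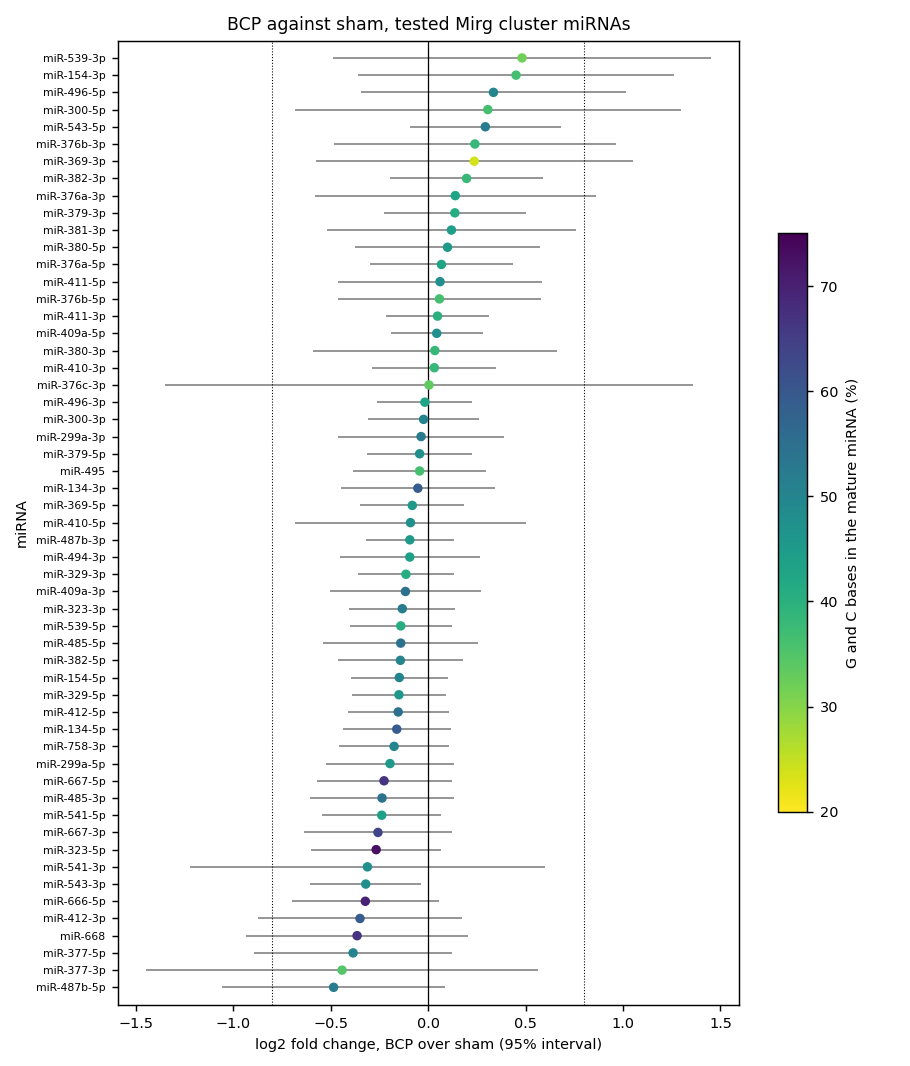
Fitted log2 fold change of BCP over sham for the 55 tested miRNAs of the cluster, as points with 95% intervals, coloured by the share of G and C bases; dotted lines mark 0.8 either way. All points lie between -0.49 and 0.48, 14 of the intervals reach beyond 0.8, and the darker, G- and C-rich miRNAs lie below 0.

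The 1 miRNA at an unadjusted p below 0.05 was the most abundant, miR-543-3p, with a log2 fold change of -0.32 (SE 0.12, 95% interval -0.61 to -0.04) and an adjusted p of 0.286 by edgeR's quasi-likelihood test. Its level was lower in BCP rats on average, at 4644 ± 389.5 CPM against 5800 ± 795.9 CPM (SD, n = 3 each), and the groups overlapped through sham-operated rat 3. Without that rat the log2 fold change was -0.46 with an adjusted p of 0.0402, still short of the fold threshold, and 14 of the 56 miRNAs of the cluster tested then (25%) had an unadjusted p below 0.05, a share near that over all 469 tested then (28.8%). Leaving out sham-operated rat 1, or either of BCP rats 2 and 3, gave 0 such miRNAs, beside 10.2%, 9.85% and 9.46% of all tested, and leaving out BCP rat 1 gave 2 of 54, miR-543-3p and miR-668, beside 15.8%. Without sham-operated rat 2 there was 1 of 55, beside 12.2% of all tested, and it was miR-377-3p (log2 fold change -0.83, adjusted p = 0.249 by edgeR's quasi-likelihood test) in place of miR-543-3p. The other arm of the same hairpin, miR-543-5p, had a log2 fold change of 0.29 (SE 0.17, adjusted p = 0.538 by the same edgeR test), from 8.31, 6.78 and 7.78 CPM in BCP rats and 7.14, 6.18 and 5.42 CPM in sham-operated rats. With 1 rat left out it ran from 0.167 (without sham-operated rat 3) to 0.37 (without BCP rat 2).

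Groups did not overlap in 4 of the 55 miRNAs, all of them lower in BCP rats, beside 85 of the 459 tested (18.5%). miR-154-5p was at 108.7, 103.3 and 107.1 CPM in BCP rats and 126.0, 115.0 and 112.8 CPM in sham-operated rats. miR-412-5p was at 62.5, 60.8 and 61.0 CPM against 71.1, 71.2 and 62.9 CPM. miR-487b-3p was at 522.7, 517.8 and 530.8 CPM against 594.7, 550.6 and 532.6 CPM. In each of them the BCP rats were close together and sham-operated rat 3 stood just above them. miR-299a-5p, at 7.72, 7.44 and 7.78 CPM against 9.81, 8.29 and 8.23 CPM, was similar. Their log2 fold changes were -0.15, -0.15, -0.09 and -0.20, and the adjusted p was 0.623 or 0.730 by edgeR's quasi-likelihood test. With 1 rat left out these values ran from -0.126 to -0.213 in miR-154-5p and from -0.13 to -0.243 in miR-412-5p. They ran from -0.078 to -0.161 in miR-487b-3p and from -0.14 to -0.274 in miR-299a-5p, each lowest without sham-operated rat 3. With scaling to total counts 9 of the 55 did not overlap (16.4%), and with RLE normalization 8 (14.5%), both beside 93 of the 459 tested (20.3%).

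The lowest log2 fold changes belonged to miRNAs with few counts. miR-487b-5p was at 2.25, 2.50 and 2.59 CPM in BCP rats and 4.18, 3.68 and 2.41 CPM in sham-operated rats, a log2 fold change of -0.49 (SE 0.25). miR-377-3p (-0.44, SE 0.44) was at 1.65, 2.21 and 2.91 CPM against 3.53, 1.25 and 4.35 CPM, and miR-377-5p (-0.39, SE 0.22) was at 2.04, 2.43 and 2.09 CPM against 3.10, 3.16 and 2.27 CPM. Only miR-668 among the 5 lowest was above 10 CPM. It had 69.8, 44.5 and 39.2 CPM in BCP rats and 65.8, 80.4 and 52.0 CPM in sham-operated rats, a log2 fold change of -0.37 (SE 0.25), with BCP rat 1 well above the other BCP rats. Leaving out 1 rat moved the value of miR-377-3p from -0.125 (without sham-operated rat 3) to -0.828 (without sham-operated rat 2) and that of miR-668 from -0.203 (without sham-operated rat 2) to -0.675 (without BCP rat 1). miR-412-3p completed these 5, at 1.57, 2.21 and 1.90 CPM against 2.52, 2.56 and 2.07 CPM (-0.35, SE 0.23).

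At the other end stood miR-539-3p, with a log2 fold change of 0.48 (SE 0.42) from 10.6, 18 and 20.4 CPM in BCP rats and 9.59, 5.85 and 19.5 CPM in sham-operated rats. BCP rat 3 and sham-operated rat 3 were its highest libraries. miR-154-3p (0.45, SE 0.35) had 4.07, 6.92 and 7.46 CPM against 4.33, 2.63 and 6.42 CPM. Within each group rat 3 was again the highest, although BCP rat 2 was above sham-operated rat 3. The values were 1.19, 0.884 and 1.08 CPM against 0.937, 0.987 and 0.602 CPM for miR-496-5p (0.33, SE 0.30) and 0.806, 0.663 and 0.696 CPM against 0.361, 0.395 and 1.00 CPM for miR-300-5p (0.31, SE 0.43). The lowest adjusted p among these 4 was 0.651 by edgeR's quasi-likelihood test. Their values moved with single rats: with 1 rat left out, the log2 fold change ran from 0.149 (without sham-operated rat 2) to 1.04 (without sham-operated rat 3) in miR-539-3p and from 0.168 to 0.779 in miR-154-3p without the same rats. It ran from 0.037 (without sham-operated rat 1) to 0.902 (without sham-operated rat 3) in miR-300-5p, and from 0.109 (without sham-operated rat 3) to 0.466 (without sham-operated rat 2) in miR-496-5p.

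Among the miRNAs that share a seed, none passed the test. In the group of 3, miR-496-5p is given above, miR-410-5p was at 2.29, 1.33 and 1.71 CPM in BCP rats and 1.80, 2.04 and 1.94 CPM in sham-operated rats, and miR-494-5p was at 0.295 to 0.594 CPM in BCP rats and 0.288 to 0.460 CPM in sham-operated rats. All of them were the minor arm of their precursor. miR-381-3p and miR-539-3p both had a fitted value above 0 (0.12 and 0.48). In each of the other 3 pairs 1 partner carried nearly all counts.

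Summed over its 63 miRNAs, the cluster was at 25020, 25350 and 25870 CPM in BCP rats and 28200, 27560 and 26990 CPM in sham-operated rats. Every BCP rat was below every sham-operated rat, by -0.12 on the log2 scale between the means, and the cluster took 2.48% to 2.56% of the counts of the BCP libraries and 2.73% to 2.85% of those of the sham libraries. The sum is given as a description only, without a p-value. The summed neuron markers and oligodendrocyte markers were also lower on average in BCP rats, by -0.13 and -0.21 on the log2 scale, with overlap between the groups, whereas the caudal neural tube markers were higher on average, by 0.16. Each of the first 2 sums came almost wholly from 1 miRNA, miR-128-3p (-0.14) and miR-219a-2-3p (-0.21), and the fitted log2 fold changes of the other listed markers were -0.03 for miR-124-3p, -0.12 for miR-138-5p, 0.14 for miR-219a-5p and 0.07 for miR-338-3p. Their part in the cluster's value was not tested. A large part of it came from 1 miRNA: without miR-543-3p the sums were 19950, 20790 and 21570 CPM against 22120, 21140 and 22090 CPM, the groups overlapped, and the difference was -0.07 on the log2 scale. The 5p arms, which leave out miR-543-3p, summed to 10500 ± 283.3 CPM in BCP rats and 11200 ± 275.5 CPM in sham-operated rats. The 3p arms summed to 13230 ± 181.4 and 14630 ± 506.8 CPM (SD, n = 3 each). Neither sum overlapped between the groups. The ranges were 10170 to 10680 against 11010 to 11520 CPM for the 5p arms and 13040 to 13390 against 14050 to 14980 CPM for the 3p arms.

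The rest of the Dlk1-Dio3 domain showed similar values. Of 28 other listed miRNAs of the domain, 22 were tested and 0 were called by edgeR's quasi-likelihood test, beside 3.49% of all tested. An unadjusted p below 0.05 was found in 2 of the 22, beside 13.1% of all tested. The median log2 fold change was -0.07, and 16 of 22 were below 0, beside 51.0% of all tested. The most abundant, miR-127-3p, which lies antisense to Rtl1 and guides cutting of its transcript, was at 59430 ± 3059 CPM in BCP rats and 63970 ± 5685 CPM in sham-operated rats (SD, n = 3 each), above any miRNA of the Mirg cluster. The 2 at an unadjusted p below 0.05 were both arms of miR-493. miR-493-3p was at 26.7, 31.6 and 34.7 CPM in BCP rats and 42.7, 40.4 and 38.6 CPM in sham-operated rats. The groups did not overlap, as was so for 18.5% of all tested miRNAs. Its log2 fold change was -0.39, with an adjusted p of 0.214 by edgeR's quasi-likelihood test. The sum of these other miRNAs was 74670 to 81010 CPM in BCP rats and 75580 to 88910 CPM in sham-operated rats, and the groups overlapped.

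Co-variation was examined as the deviation of log2(CPM + 1) in each rat from the mean of its own group, so that a difference between the groups does not enter. Taken as a whole, the cluster did not move together. The median Pearson correlation over all pairs of the 55 miRNAs was -0.02 across the 6 libraries, with 49.6% of pairs positive, beside 0.02 and 50.9% among the 404 other tested miRNAs. These and the following correlations are descriptions, since all pairs share the same 6 libraries, their depth and their scaling.

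The cluster held opposite movements that ran with base composition. The 12 tested miRNAs with under 40% G and C bases, such as miR-369-3p, miR-539-3p and miR-495, had a median pairwise correlation of 0.96, with every pair positive. The 12 with at least 54%, such as miR-323-5p, miR-668 and miR-134-5p, had a median of 0.80. Between these sets the median was -0.90 and 1.39% of pairs were positive. The bounds of 40% and 54% were chosen after the values had been seen, and no test was made.

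The movement was seen in single libraries of both groups. All 12 of the miRNAs with under 40% G and C were below the group's mean in sham-operated rat 2 (median deviation -0.48 on the log2 scale) and all 12 were above it in sham-operated rat 3 (0.49). BCP rat 1 resembled the former, with 1 of 12 above the mean (median -0.36), and BCP rat 3 the latter, with 11 of 12 above (0.31). The 12 miRNAs with at least 54% went the other way, with 11 above the mean in sham-operated rat 2, 0 in sham-operated rat 3, 11 in BCP rat 1 and 1 in BCP rat 3. Sham-operated rat 1 and BCP rat 2 lay between. miR-369-3p, with the fewest G and C bases, shows the size of it, at 128.3, 208.1 and 271.3 CPM in BCP rats and 157.0, 105.6 and 253.3 CPM in sham-operated rats, a wider range than the distance between the group means (202.6 ± 71.67 against 171.9 ± 74.97, SD, n = 3 each).

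**Figure D4:**
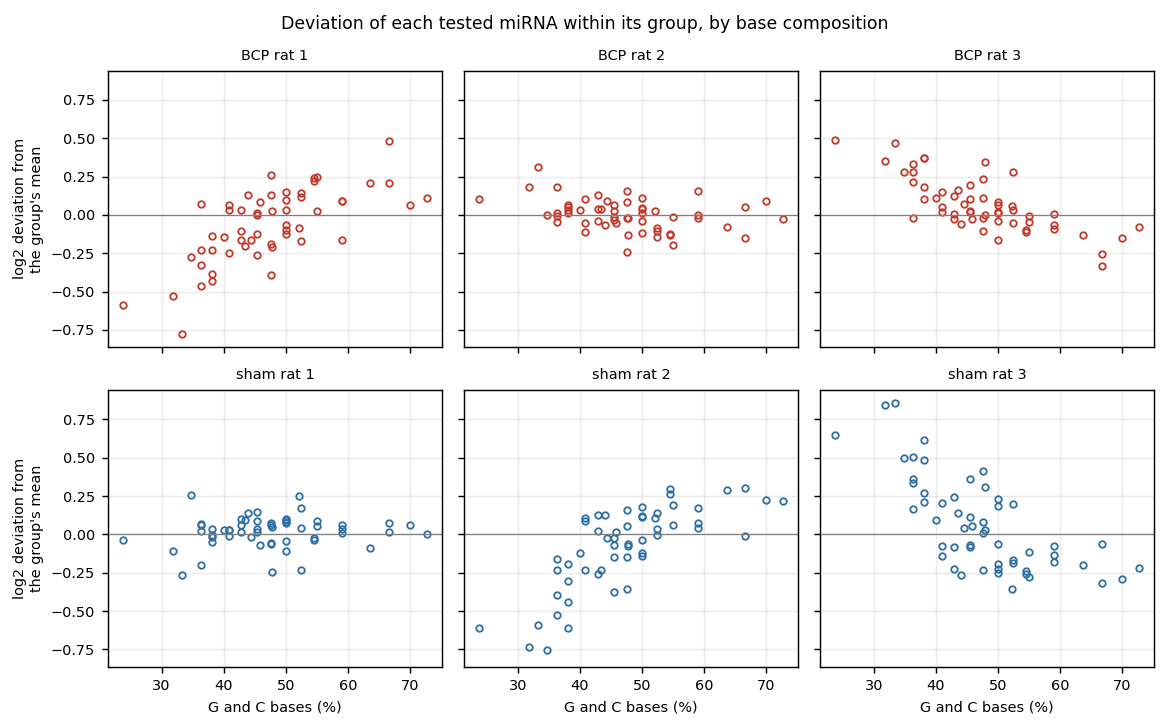
Deviation of each of the 55 tested miRNAs from the mean of its group, on the log2(CPM + 1) scale, against the share of G and C bases in the mature miRNA, with 1 panel for each rat. The points rise with G and C in BCP rat 1 and sham-operated rat 2 and fall in BCP rat 3 and sham-operated rat 3.

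Over the 55 miRNAs, the Pearson correlation of the deviation with the share of G and C was 0.70 in BCP rat 1, -0.34 in BCP rat 2 and -0.75 in BCP rat 3. It was 0.12, 0.75 and -0.71 in sham-operated rats 1, 2 and 3. The 372 tested miRNAs outside the cluster that had a sequence went the same way in every library, at 0.59, -0.26, -0.54, 0.04, 0.53 and -0.50 in the same order. The movement was thus also present outside the Mirg cluster. These are correlations across miRNAs within 1 library, which are not independent replicates. What made the libraries differ in this way was not tested.

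The fitted log2 fold changes also followed base composition. Across the 55 miRNAs the Pearson correlation of the log2 fold change with the share of G and C was -0.56, beside -0.27 in the 372 others. The median was 0.13 for the 12 miRNAs under 40%, of which 10 were above 0. It was -0.09 for the 31 between, of which 10 were above 0, and -0.23 for the 12 with at least 54%, of which 0 were above 0. A smooth curve on G and C was drawn in each library from the 372 miRNAs outside the cluster, here from the deviation of log2(CPM + 1) from the mean of all 6 libraries, so that it also takes up a difference between the groups that runs with G and C. Entered into the fit as an offset, it brought the 3 medians to -0.13, -0.13 and -0.14, and the correlation to -0.12. With this offset 41 of the 55 were below 0 (74.5%, beside 58.6% of all tested), the median was -0.13 and 0 were called. An unadjusted p below 0.05 was found in 3, miR-543-3p, miR-495 and miR-329-5p, beside 17.6% of all tested. After the offset the median pairwise correlation fell to 0.42 within the low set and 0.01 within the high set, and was -0.26 between them. The offset was chosen after the data had been seen.

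Within hairpins the relation with base composition was mixed. In miR-369, whose 5p arm has 45.4% G and C and whose 3p arm has 23.8%, the difference of log2(CPM + 1) between the 5p and the 3p arm, called the arm ratio below, was 2.26, 1.71 and 1.41 in BCP rats and 2.21, 2.60 and 1.61 in sham-operated rats. In miR-382 (50% and 38.1%) it was 1.40, 0.98 and 0.68 against 1.41, 1.84 and 0.84. In both precursors BCP rat 1 and sham-operated rat 2 were the highest of their groups and rat 3 the lowest of each. In miR-485, whose arms both have 54.5%, the arm ratio was 0.48, 0.45 and 0.44 in BCP rats and 0.35, 0.40 and 0.34 in sham-operated rats. In other precursors such a relation was not seen. In miR-376a, whose arms both have 42.9%, it was 5.12, 5.08 and 5.32 against 5.09, 4.79 and 5.65, nearly as wide a range within the sham group as in miR-369. Its 3p arm had 9 to 20 counts (0.602 to 1.18 CPM), so the 1 added to the CPM weighs heavily on this arm ratio. In miR-323 (72.7% and 52.4%) it hardly moved, at -5.32, -5.22 and -5.31 against -5.20, -5.08 and -5.19, and in miR-411 (47.6% and 40%) it was lowest in BCP rat 1 and sham-operated rat 2, at 0.31, 0.68 and 0.68 against 0.45, 0.30 and 0.85. Of the 24 precursors with both arms tested, 15 had a 5p arm richer in G and C, and in 11 of these the arm ratio was higher in sham-operated rat 2 than in sham-operated rat 3, as it also was in 11 between BCP rats 1 and 3. Where the 3p arm was the richer, in 6 precursors, the arm ratio was lower in sham-operated rat 2 than in sham-operated rat 3 in 3, and lower in BCP rat 1 than in BCP rat 3 in 1. Some minor arms behind these counts were also near the floor, such as miR-300-5p (5 to 19 counts) and miR-541-3p (11 to 26 counts). Over the 24, the Pearson correlation of the change in ratio with the difference in G and C was 0.49 between the sham-operated rats 2 and 3 and 0.32 between the BCP rats 1 and 3. Between the groups, the fitted log2 fold changes of the 5p and the 3p arm had the same sign in 14 of the 24 precursors. The median was -0.14 over the 25 tested 5p arms and -0.03 over the 28 tested 3p arms, and the median share of G and C was 47.8% in these 5p arms and 43.2% in these 3p arms.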

How the data were processed

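The authors deposited 1 table of raw read counts, not normalized, that lists 753 known mature miRNAs in 6 libraries, 1 per rat. Per the study's methods the authors filtered reads of the NEBNext small RNA kit with the FASTX Toolkit, mapped clean reads of 18 to 40 bases to Rnor 6.0 with Bowtie (2.2.3 in the submitters' processing notes) and used miRBase. Totals were 13464349 to 23770677 counts, and limits on low counts cover counting error only. Libraries of a group differed by a chi-square of at least 59.5 per degree of freedom, so none was a copy.

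Groups were compared by edgeR 4.0.16 under R 4.3.3 (filterByExpr, minimum count 10, TMM, quasi-likelihood test, Benjamini-Hochberg over 459 miRNAs), with thresholds of 0.05 and 0.8 as in the study. DESeq2 1.42.0, limma-voom 3.58.1, other filters and scalings, a replicate block, a G and C offset and leaving out each rat were alternatives. Sequences came from RefSeq (GRCr8), which is another build than the files', so no coordinates are given. Unassigned columns numbered 0. The miRNAs and lists were chosen with earlier results of these data known. Named miRNAs are the 10 highest in sham, the 5 highest and 5 lowest fold changes, the 5 precursors nearest to and farthest from an even arm share, shared seeds and groups without overlap. Others were named after their values were seen.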

Additional observations from a re-analysis of the deposited data

How the results depend on the processing

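The count of 0 called miRNAs held under every alternative run, and the median log2 fold change of the cluster stayed between -0.136 and -0.066. Precision was limited by 3 rats per group, and for 14 of 55 miRNAs the 95% interval reached beyond 0.8. The number with an unadjusted p below 0.05, which was 1, was 3 with the G and C offset, 2 with the replicate block, 3 with the block and the offset together, and 0 to 14 when 1 rat was left out. The share of all tested miRNAs was 17.6%, 15.9% and 17.9% in the first 3 of these and 28.8% where the count was 14. The labels give same-numbered rats only a common number, and the main fit did not pair them. Their deviations correlated at 0.11, -0.45 and 0.71, and not every rat correlated best with its own number. These correlations cannot decide whether such rats shared anything more, because the libraries also differed with base composition. The replicate block called 0. The number without overlap, which was 4, was 9 with total counts and 8 with RLE normalization (20.3% of all 459 tested in both) and 6 of 62 with no filter (17.1% of all 603). The median pairwise correlation of -0.017 lay between -0.089 and 0.057 with 1 rat left out. For the 24 miRNAs named with a test, 212 of the refits other than leaving out a rat kept the direction and the side of the threshold, and 2 changed direction, both in miR-411-3p (-0.101 with the offset, -0.1 with the block and the offset). Of the refits without a rat, 131 kept both, although the size could move (in miR-539-3p from 0.149 to 1.04), 1 passed the adjusted threshold (miR-543-3p without sham-operated rat 3) and 11 changed direction. Those ran from -0.119 to 0.029 in miR-379-5p, from -0.17 to 0.046 in miR-495, from -0.108 to 0.068 in miR-300-3p, from -0.11 to 0.263 in miR-411-5p and from -0.019 to 0.1 in miR-411-3p, all of them called in no setting. The cause of these shifts was not tested.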
